A study of Mus musculus with 16 samples.

Results

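The chemokines are small secreted proteins that guide the movement of leukocytes. The transcripts of 10 chemokine genes, Ccl2, Ccl5, Ccl7, Ccl20, Cxcl1, Cxcl2, Cxcl5, Cxcl10, Cxcl12 and Cx3cl1, were followed in cultured mouse aortic smooth muscle cells. They were picked by gene symbol in the array's annotation, which gave 17 of the 45101 probe sets and 10 of the 18193 genes with a probe set of their own. The low-value filter described below was passed by 13 of the 17 probe sets and by 7 of the 10 genes. Ccl5, Ccl20 and Cxcl5 did not pass it and were described without a test.

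The cells were wild type or Hey2 knockout. Hey2 is a transcriptional repressor downstream of Notch. Both genotypes came from aortas stripped of adventitia, had a mixed C57BL/6 and 129SvJ background and were at passage 10 to 20. After 48 h in medium with 0.4% FCS, cells received human PDGF-BB, a mitogen and chemoattractant for smooth muscle, at 5 ng/ml. Total RNA of each genotype was taken at 0, 15, 30, 60, 120, 180, 240 and 480 min, with 1 Affymetrix array for each genotype and time, 16 in all. No source used here states the Hey2 allele or how many animals or cell isolates stand behind each genotype. Genotype can therefore not be told apart from the isolate, and p-values measure the spread between time-matched arrays, which may be technical. No time course without PDGF-BB was analysed here, so a change with time cannot be told apart from the effect of the medium change alone.

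All values below are normalized signals, brought to 1 common distribution over the 16 arrays. A gene was tested when its signal exceeded 16 on at least 3 of 12 arrays, and it was represented by its brightest probe set that did so. The 12 arrays were those of 0, 15 and 30 min, called the early window, and of 120, 180 and 240 min, called the late window. Differences are on the scale of log2(signal + 4.856), which understates the changes of dim genes, and each is printed with its standard error from limma. Time is a factor in the fit, so the error of a change between windows leaves out the spread between the times of a window. The number of arrays limits the precision. A gene was called at an adjusted p under 0.05, adjusted by Benjamini and Hochberg's method over 13913 genes.

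The arrays labelled wild type 60 min and wild type 480 min stood apart from the time order. At the other 6 times the centred profiles of the time-matched arrays correlated at 0.4 to 0.54. At 60 min the correlation was -0.35, and the wild-type array was closest to the knockout array of 480 min at 0.59. At 480 min it was -0.4, and the wild-type array was closest to the knockout array of 60 min at 0.48. Fos, an immediate early gene, had a signal of 212 on the array labelled wild type 60 min and 7704 on that labelled wild type 480 min, against 6380 (60 min) and 638 (480 min) in the knockout. The values of these times are given below as labelled, and they did not enter the 12-array fit. Hey2 itself read 101 to 113 in the early window and 14.0 to 19.3 in the late window of the wild type, and 23.3 to 63.3 on the 8 knockout arrays. In the late window the wild-type signals of Hey2 thus lay below all 8 knockout signals. No source used here places the probe set relative to the deletion, so this reading does not check the labels.

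Chemokines act through G protein-coupled receptors and are grouped by the spacing of their first cysteines. CC chemokines such as Ccl2 and Ccl7 attract monocytes through Ccr2. CXC chemokines that carry a glutamate-leucine-arginine motif, such as Cxcl1, Cxcl2 and Cxcl5, attract neutrophils through Cxcr2. Cxcl10 is an interferon-induced ligand of Cxcr3, Cxcl12 binds Cxcr4 and the scavenger receptor Ackr3, and Cx3cl1 is made as a membrane-bound ligand of Cx3cr1. Ccl2 was known as a growth factor-inducible gene of fibroblasts before its role in monocyte recruitment was described. Many inducible chemokine genes carry binding sites for NF-kappaB in their promoters.

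Ccl2, the main monocyte attractant, rose with time in both genotypes, from a lower start to a higher level in the wild type. Its signal in the wild type was 162 at 0 min, 203 at 15 min, 435 at 30 min, 1186 at 60 min, 1269 at 120 min, 1511 at 180 min, 2018 at 240 min and 1742 at 480 min. In the knockout it was 393 at 0 min, 317 at 15 min, 565 at 30 min, 938 at 60 min, 1073 at 120 min, 780.1 at 180 min, 823 at 240 min and 349 at 480 min. The knockout array was the higher of the pair at 0, 15 and 30 min and the lower at each of the 5 later times. The highest knockout value, at 120 min, lay below every late value of the wild type.

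The late minus early change of Ccl2 was 2.67 ± 0.18 in the wild type (limma adjusted p = 1.16e-07), a 6.35-fold rise. It was 1.09 ± 0.18 in the knockout (limma adjusted p = 0.000543), a 2.12-fold rise. The difference between these changes, knockout minus wild type, was -1.58 ± 0.26 with a 95% interval from -2.13 to -1.02 (limma adjusted p = 0.00446). Ccl2 was 0.75 ± 0.18 higher in the knockout in the early window (limma adjusted p = 0.00544) and lower there in the late window, by a difference of -0.83 ± 0.18 (limma adjusted p = 0.00298). Averaged over both windows the genotypes differed by -0.04 ± 0.13 (limma adjusted p = 0.841). The call on the difference of the changes was lost when the variance was not modelled on intensity (adjusted p = 0.151), without the time block (adjusted p = 0.144), with all 16 arrays (-1.68, adjusted p = 0.362) and on the deposited scale (-1.66, adjusted p = 1), all by limma. The higher early level was called in 17 of 23 other settings. In such counts the settings with 1 array left out come in pairs. Leaving out either array of a time gave the same estimate. Its call was lost without the wild-type or the knockout 0 min array (0.50, limma adjusted p = 0.0756 and 0.0777), with all 16 arrays (0.48, adjusted p = 0.32), on the deposited scale (1.20, adjusted p = 0.371), without the intensity trend (adjusted p = 0.0699) and without the time block (adjusted p = 0.0872), all by limma. The lower late level was called in 20 of 23, and not on the deposited scale (-0.46, adjusted p = 0.845), without the intensity trend (adjusted p = 0.0525) or without the time block (adjusted p = 0.0613), all by limma.

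Ccl7, another monocyte attractant, whose gene is the next protein-coding gene after Ccl2 on chromosome 11, also rose with time, and it was lower in the knockout at every time. The wild-type signals were 119.6 at 0 min, 155 at 15 min, 304 at 30 min, 306 at 60 min, 425 at 120 min, 545 at 180 min, 633 at 240 min and 744 at 480 min. The knockout signals were 81.2, 51.7, 101.5 and 187 over the first 4 times and 167, 173, 133 and 77.2 over the last 4. The wild-type to knockout ratio was smallest at 0 min, at 1.47, and it was 3 at 15 min, 4.75 at 240 min and 9.64 at 480 min as labelled. No knockout value of the late window reached the lowest late value of the wild type.

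Over the 6 times Ccl7 differed by -1.46 ± 0.14 between knockout and wild type (limma adjusted p = 2.75e-06), a 2.74-fold lower level. On the deposited scale this was -1.01 (limma adjusted p = 0.0702). It rose by 1.54 ± 0.20 in the wild type (limma adjusted p = 4e-05) and by 1.01 ± 0.20 in the knockout (limma adjusted p = 0.00208). The difference of these changes, -0.53 with a 95% interval from -1.16 to 0.09, was not called (limma adjusted p = 0.358). Ccl2 and Ccl7 therefore shared the rise, but an early excess in the knockout was measured for Ccl2 and an early deficit for Ccl7. Over the 16 arrays, which share time course and genotypes, Pearson's r between their log2 values was 0.758. With all 16 arrays the late minus early change in the knockout was no longer called for Ccl2 (0.46, limma adjusted p = 0.366) or Ccl7 (0.45, limma adjusted p = 0.347).

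**Figure D1:**
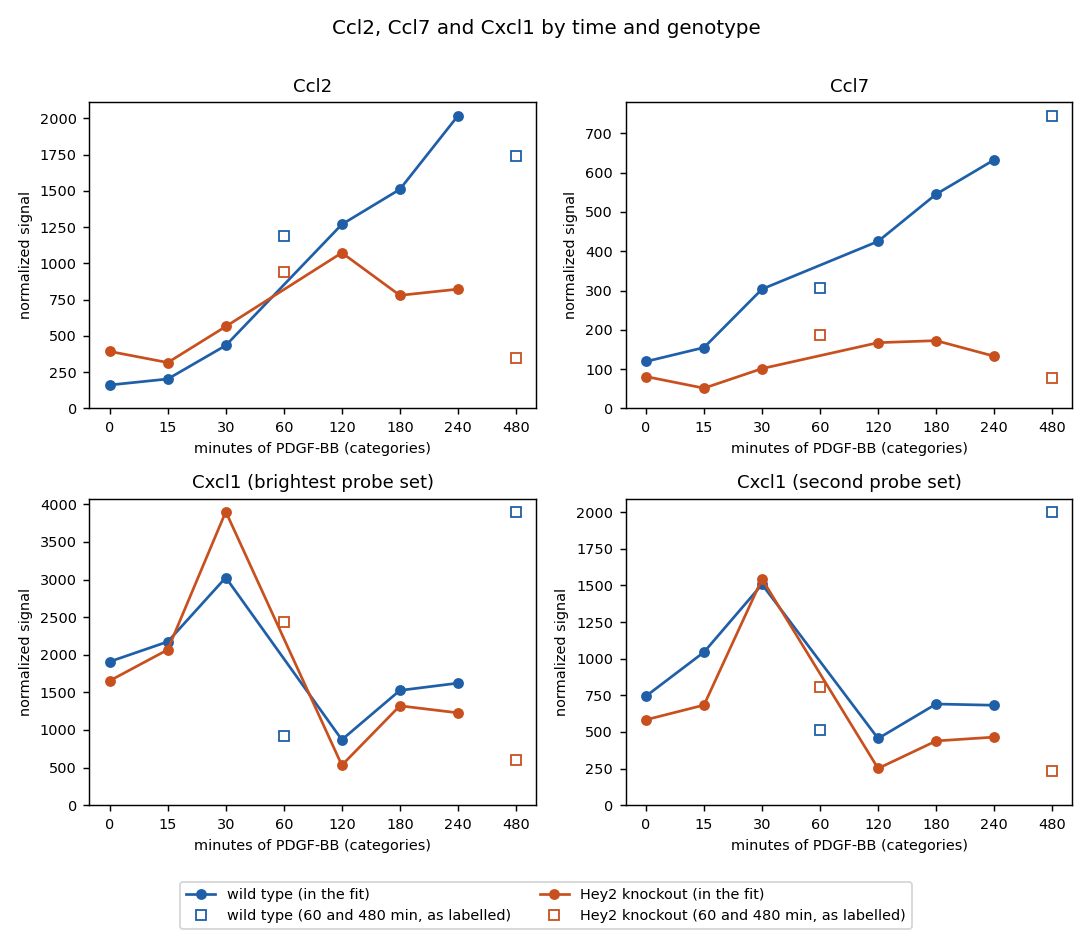
Normalized signal (y axis, linear, from 0) of Ccl2, Ccl7 and of 2 probe sets of Cxcl1 against minutes of PDGF-BB (x axis, equally spaced categories), 1 array per point, blue for wild type and orange for Hey2 knockout. Filled, joined circles are the 12 arrays of the fit and open squares the 60 and 480 min arrays as labelled. Ccl2 crosses between genotypes after 30 min, Ccl7 is lower in the knockout at each time, and Cxcl1 is highest at 30 min within the fitted arrays of both genotypes.

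Cxcl1, a neutrophil attractant, had another time course, with a peak at 30 min and a trough at 120 min among the fitted arrays of both genotypes. Its brightest probe set read 1909 at 0 min, 2174 at 15 min, 3027 at 30 min, 869.7 at 120 min, 1526 at 180 min and 1623 at 240 min in the wild type. The knockout read 1654, 2068, 3904, 531, 1321 and 1228 at the same times. As labelled, the wild-type arrays of 60 and 480 min read 919.9 and 3904, and the knockout arrays 2438 and 595, so these times ran in opposite directions in the 2 genotypes, as did Fos. The next probe set in brightness followed the same order, with 744 at 0 min, 1507 at 30 min and 455 at 120 min in the wild type and 583, 1544 and 250.4 in the knockout. The 30 min signal of the brightest probe set was 1.59 times the 0 min signal in the wild type and 2.36 times it in the knockout.

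Cxcl1 was the only one of the 7 tested chemokines called between 30 and 0 min over both genotypes, at 0.95 ± 0.14 (limma adjusted p = 0.00234), against 0.733% of all tested genes, a comparison chosen after the values were seen. This rise depends on the scaling. The wild-type 30 min array was the dimmest deposited array, with a trimmed mean signal of 80.6 against 162 to 342 on the others, and as deposited the wild-type signal of Cxcl1 went from 2101 at 0 min to 1156 at 30 min, while the knockout signal went from 1683 to 4393. On the deposited scale the fitted rise was 0.26 (limma adjusted p = 0.761). The call was also lost without the intensity trend (adjusted p = 0.279), with all 16 arrays (adjusted p = 1), and without the knockout 0 min array (0.77, adjusted p = 0.0951) or the knockout 30 min array (0.70, adjusted p = 0.074), all by limma. The other 2 probe sets of Cxcl1 rose by 1.21 and 1.31 in a fit of all probe sets (limma adjusted p = 0.00102 and 0.00126). Probe sets marked s_at, as the brightest one is, may match more than 1 transcript, and Cxcl1 lies between Cxcl15 and Cxcl2 on chromosome 5.

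From the early to the late window Cxcl1 fell by 1.08 ± 0.08 on the log2 scale (limma adjusted p = 1.11e-07). With windows of 0 to 15 and 180 to 240 min, which leave out the peak and the trough, the change was -0.45 (limma adjusted p = 0.000109). With all 16 arrays it was -0.80 (limma adjusted p = 0.0642), and on the deposited scale it was -0.75 (limma adjusted p = 0.36). The genotype difference over the 6 times was small, at -0.20 ± 0.08 (limma adjusted p = 0.0451), and was called in 9 of 23 other settings. In the late window the knockout was lower by a difference of -0.44 ± 0.11 (limma adjusted p = 0.00706), called in 17 of 23 other settings. That call was lost without the wild-type or the knockout 120 min array (-0.30, limma adjusted p = 0.0775 and 0.0758), on the deposited scale (-0.05, adjusted p = 0.985), with all 16 arrays (-1.005, adjusted p = 0.102), without the intensity trend (adjusted p = 0.076) and without the time block (adjusted p = 0.414), all by limma. The 3 probe sets agreed in the sign of the genotype difference, at -0.20 for the brightest, -0.50 for the next in brightness and -0.26 for the dimmest, in a fit of all probe sets where the brightest was not called (limma adjusted p = 0.057).

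Cxcl2, the neighbour of Cxcl1 and also a neutrophil attractant, was dim, with its higher signals at later times. The wild-type signals were 20.4, 12.3, 14.1 and 47.4 at 0, 15, 30 and 60 min, and 23.8, 35.9, 40.5 and 36.9 at 120, 180, 240 and 480 min. The knockout signals were 0.70, 8.21, 6.08 and 9.24, then 13.7, 20.0, 13.8 and 9.75. The wild-type array was the higher of the pair at all 8 times, and 1 knockout array of 8 exceeded the filter signal. Of the 12 fitted arrays Cxcl2 exceeded the filter signal on 4 of the wild type and 1 of the knockout, so it entered the fit only through the wild type, and likewise only through the late window. Its fitted differences, -0.998 ± 0.295 between genotypes and 1.02 ± 0.30 between windows, are therefore given as a description against values at background, with no test. Without the 0 min array of the wild type or of the knockout, where the knockout signal was 0.70, the genotype difference was -0.73, and with the offset multiplied by 3 it was -0.64. The change with time differed between genotypes by 0.25 with a 95% interval from -1.03 to 1.53.

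The promoters of the neighbouring pair Cxcl1 and Cxcl2, and of Cxcl10 and Cxcl12, are shown because the first 3 are known targets of inflammatory signalling while Cxcl12 is known as a homeostatic chemokine. Each runs from 250 bases before to 50 bases after the start in RefSeq's GRCm38.p6. Of the 10 genes, 6 had an entry in the promoter table. Capitals mark matches to GGNNNTTCC, an NF-kappaB-like motif, or to GAAANNGAA, an interferon-element-like motif, on either strand. The windows are chr5:90890995-90891294 on the plus strand for Cxcl1, chr5:90903649-90903948 on the plus strand for Cxcl2, chr5:92348840-92349139 on the minus strand for Cxcl10 and chr6:117168285-117168584 on the plus strand for Cxcl12.
Cxcl1: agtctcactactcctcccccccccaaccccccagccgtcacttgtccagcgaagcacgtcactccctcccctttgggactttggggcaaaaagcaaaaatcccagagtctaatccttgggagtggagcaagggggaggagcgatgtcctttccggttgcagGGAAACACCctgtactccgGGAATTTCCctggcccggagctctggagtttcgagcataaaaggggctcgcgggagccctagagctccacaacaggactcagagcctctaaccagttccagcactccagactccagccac
Cxcl2: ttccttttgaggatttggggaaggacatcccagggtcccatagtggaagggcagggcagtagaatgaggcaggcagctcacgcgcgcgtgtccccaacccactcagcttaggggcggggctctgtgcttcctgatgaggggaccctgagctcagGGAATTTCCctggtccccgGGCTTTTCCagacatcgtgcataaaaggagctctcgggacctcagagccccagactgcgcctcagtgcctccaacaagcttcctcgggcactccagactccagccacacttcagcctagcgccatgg
Cxcl10: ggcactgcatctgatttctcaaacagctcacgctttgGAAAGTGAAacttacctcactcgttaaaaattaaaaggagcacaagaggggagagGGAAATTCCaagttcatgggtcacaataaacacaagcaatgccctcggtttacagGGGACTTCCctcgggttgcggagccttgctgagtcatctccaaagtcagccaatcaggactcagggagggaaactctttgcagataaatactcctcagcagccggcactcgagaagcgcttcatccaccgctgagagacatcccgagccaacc
Cxcl12: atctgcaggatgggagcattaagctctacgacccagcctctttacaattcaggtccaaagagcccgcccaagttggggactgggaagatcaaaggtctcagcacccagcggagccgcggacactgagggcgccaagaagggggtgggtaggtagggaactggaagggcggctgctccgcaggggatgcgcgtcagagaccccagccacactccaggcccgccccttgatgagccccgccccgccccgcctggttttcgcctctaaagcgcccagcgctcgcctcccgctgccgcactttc
Cxcl1 and Cxcl2 share the match GGAATTTCC, which begins 70 bases before the start in Cxcl1 and 96 bases before it in Cxcl2 and reads as a match on both strands. A further match begins 89 bases before the start of Cxcl1, on the minus strand, and 77 bases before that of Cxcl2, on the plus strand. Cxcl10 has NF-kappaB-like matches 158 and 103 bases before its start and the interferon-element-like match GAAAGTGAA 213 bases before it. The Cxcl12 window held no match to either motif. Ccl20 and Cx3cl1, not printed, each held 1 NF-kappaB-like match and no interferon-element-like match. Of all 32851 promoters of this length, 18.5% held the NF-kappaB-like motif and 8.56% the interferon-element-like motif. These matches are a description of the letters and not of binding. Cxcl2 was too near background for its time course to be set beside that of Cxcl1. Whether the shared match bears on either gene's signal was not tested.

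Cxcl12, which retains stem cells and leukocytes in their niches and is made by many stromal cells, was among the bright genes and was lower in the knockout. In the wild type its brightest probe set read 8489, 8634, 8920.4 and 5569 over the first 4 times, and 7547, 6571, 6613 and 8520.4 over the last 4. The knockout read 5722, 5254, 5597 and 5605, then 4654, 3971, 4118 and 3453. Among the 6 fitted times every wild-type value exceeded every knockout value, and at 60 min the genotypes were nearly equal as labelled.

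The next Cxcl12 probe set in brightness showed a larger gap. Its wild-type signal ran from 3474 to 5536 over the 8 arrays with a median of 4545, and its knockout signal from 1059 to 1432 with a median of 1153. The genotype difference over the 6 times was -0.68 ± 0.03 for the brightest probe set (limma adjusted p = 2.85e-09) and -1.88 ± 0.06 for the next one in the fit of all probe sets (limma adjusted p = 1.47e-10), a 1.60-fold and a 3.67-fold lower level. The remaining probe set was dim, at 4.22 to 23.8, and not called (0.19, limma adjusted p = 0.658). The first 2 probe sets agreed in direction and differed in size, and whether they read different isoforms was not tested. On the deposited scale the difference of the brightest probe set was -0.43 and not called (limma adjusted p = 0.472).

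Cxcl12 fell by 0.36 ± 0.03 on the log2 scale from the early to the late window (limma adjusted p = 1.22e-06), and the second probe set fell by 0.36 ± 0.06. The fall was -0.28 with all 16 arrays (limma adjusted p = 0.0653) and -0.20 on the deposited scale (limma adjusted p = 0.887). For the brightest probe set the change differed between genotypes by -0.05 with a 95% interval from -0.19 to 0.09 (limma adjusted p = 0.758). The second probe set gave 0.30 with an interval from 0.059 to 0.548, which was not called (limma adjusted p = 0.213, fit of all probe sets). Its wild-type change was -0.51 (limma adjusted p = 0.000259). Its knockout change was smaller, at -0.20, and not called (limma adjusted p = 0.0837). Ackr3, the scavenger receptor of Cxcl12, was also lower in the knockout. Its mean signal in the wild type was 1220 early and 598 late, and in the knockout 196 early and 151 late. The genotype difference of Ackr3 was -2.24 ± 0.10 (limma adjusted p = 1.61e-09), and its late minus early change was -0.73 ± 0.10 (limma adjusted p = 5.05e-05).

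Cx3cl1, the membrane-bound chemokine that binds monocytes and T cells, began higher in the knockout, and the genotypes met in the late window. The wild-type signals were 459, 424, 429 and 679 at 0, 15, 30 and 60 min, and 654, 743.5, 806 and 459 at 120, 180, 240 and 480 min. The knockout signals were 607, 595, 568 and 632, then 732, 827, 749 and 583. All 3 early knockout values exceeded all 3 early wild-type values, while the late values overlapped. The early difference was 0.43 ± 0.09 (limma adjusted p = 0.00279), and over the 6 times it was 0.25 ± 0.07 (limma adjusted p = 0.00687). With all 16 arrays these were 0.30 and 0.22 and were not called (limma adjusted p = 0.135 and 0.097), and on the deposited scale they were 0.90 and 0.68 (limma adjusted p = 0.607 and 0.329).

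From the early to the late window Cx3cl1 rose by 0.56 ± 0.07 (limma adjusted p = 1.05e-05), with every late array of a genotype above each of its early arrays. With all 16 arrays the rise was 0.33 (limma adjusted p = 0.0297), and on the deposited scale 0.89 (limma adjusted p = 0.24). The change differed between genotypes by -0.36 with a 95% interval from -0.64 to -0.07, which was not called (limma adjusted p = 0.164). The other 3 probe sets of Cx3cl1 were dim, between 0.64 and 47.3. Of these, 2 passed the filter and gave genotype differences of 0.33 and 0.27, and late minus early changes of 0.38 and 0.41, none of them called. The probe set with 0.27 and 0.41 exceeded the filter signal on late arrays only, so its change with time is given as a description.

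**Figure D2:**
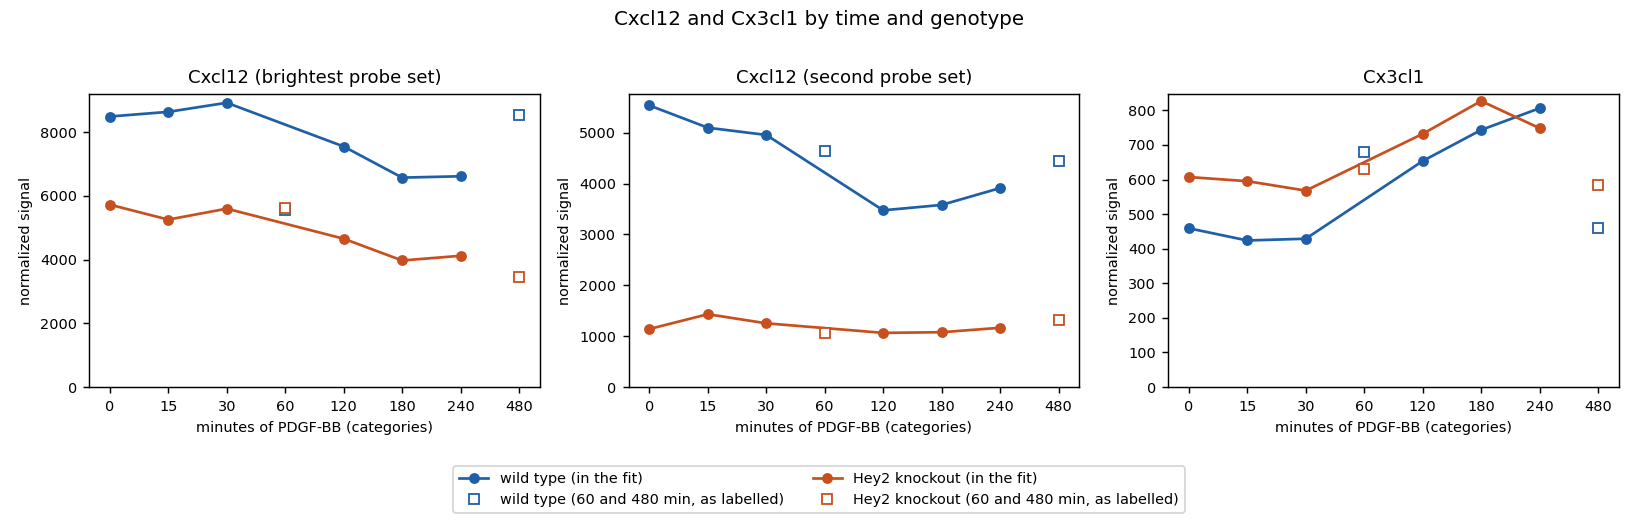
Normalized signal (y axis, linear, from 0) of the 2 bright probe sets of Cxcl12 and of the brightest probe set of Cx3cl1 against minutes of PDGF-BB (x axis, equally spaced categories), 1 array per point, in blue for wild type and orange for Hey2 knockout. Filled circles entered the fit and open squares are the 60 and 480 min arrays as labelled. The second Cxcl12 probe set lies between 1059 and 1432 in the knockout and between 3474 and 5536 in the wild type, while the early Cx3cl1 values are higher in the knockout.

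Cxcl10, the interferon-induced ligand of Cxcr3, was near the filter and differed mainly in level. In the wild type it read 6.69, 20.8, 16.7 and 19.4 at 0, 15, 30 and 60 min, and 18.5, 11.2, 26.2 and 33.4 at 120, 180, 240 and 480 min. In the knockout the 8 values lay between 24.5 and 35.4. The knockout array was higher at every time but 240 min. The genotype difference was 0.70 ± 0.24 (limma adjusted p = 0.029), and it was called in 13 of 22 other settings. Leaving out 1 array gave 0.55 to 0.73 where the call was lost, which was without the wild-type 0, 120 or 180 min array or the knockout 0, 30, 120 or 180 min array (limma adjusted p from 0.0517 to 0.121). The change with time was 0.12 ± 0.24 (limma adjusted p = 0.713).

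The 3 untested genes stayed low on all arrays. Ccl5, a T cell attractant, ran from 1.06 to 9.57 over the 16 arrays with a median of 1.76, and its highest value in each genotype was at 15 min. Ccl20, the ligand of Ccr6, ran from 1.06 to 12.5 with a median of 2.58, and its highest value was the wild-type 180 min array. Cxcl5, a further neutrophil attractant, ran from 0.81 to 19.0 with a median of 6.12, and exceeded 16 on the wild-type 15 min array alone. These levels do not show that the genes were silent, only that they were not told apart from the low end of the arrays.

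**Figure D3:**
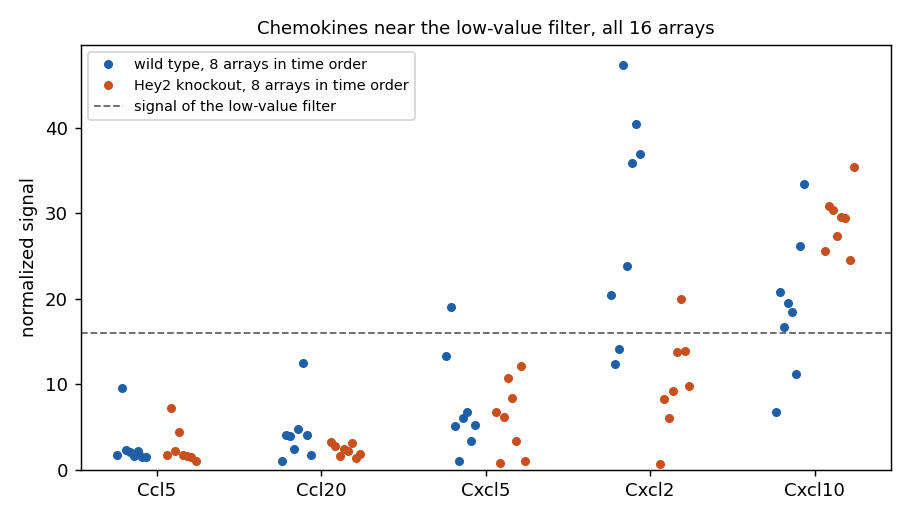
Normalized signal (y axis, linear, from 0) of Ccl5, Ccl20, Cxcl5, Cxcl2 and Cxcl10 on all 16 arrays, 1 point per array, drawn in time order within each genotype, blue for wild type and orange for Hey2 knockout. The dashed line is the filter signal of 16. Cxcl10 lies above the line on all 8 knockout arrays, Cxcl2 on 6 wild-type and 1 knockout array, and Ccl5 and Ccl20 on none.

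The 7 tested chemokines were read against all 13913 tested genes. Over the 6 times 6 of the 7 were called between genotypes, against 48% of all genes. Cxcl10 and Cx3cl1 were higher in the knockout (24.1% of all genes were higher), and Ccl7, Cxcl1, Cxcl2 and Cxcl12 were lower (23.9% of all genes). Cxcl2 is counted here and between the windows although it passed the filter only through its wild-type and its late arrays. The median difference of the 7 was -0.20, against -0.02 for all genes. Between the windows 6 of the 7 were called, against 51%. Ccl2, Ccl7, Cxcl2 and Cx3cl1 were called higher late (20.5% of all genes), and Cxcl1 and Cxcl12 lower (30.5%). The median change was 0.56, against -0.07 for all genes.

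The change differed between genotypes for 1 of the 7, Ccl2, against 4.27% of all genes. The number of all genes so called, 594, fell to 2 without the intensity trend or with all 16 arrays, and to 0 on the deposited scale by limma, where 150 had an unadjusted p under 0.05. Within the early window 4 of the 7 were called between genotypes (36.2% of all genes), and within the late window 4 (36.8%). Within the wild type 5 of the 7 changed between the windows (46.7%), and within the knockout 5 (31.9%). With calls this common among all genes, a count of calls does not set the chemokines apart. On the deposited scale 0 of the 7 were called between genotypes by limma (2 at an unadjusted p under 0.05), and 1494 rather than 6685 of all genes, of which 89.6% rather than 50.2% were higher in the knockout.

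**Figure D4:**
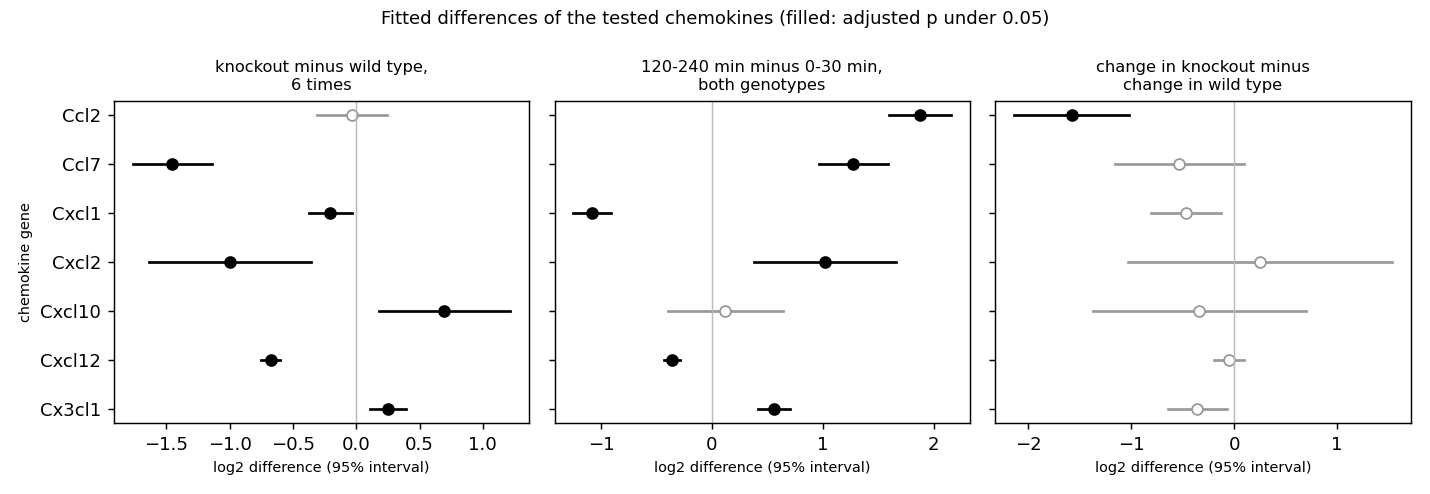
Fitted log2 differences (x axis) with 95% intervals (lines) of the 7 tested chemokines (rows), for knockout minus wild type, for 120 to 240 min minus 0 to 30 min, and for the difference of that change between genotypes. Filled points have a limma adjusted p under 0.05 over 13913 genes. Ccl2 is the 1 filled point in the last panel, at -1.58. Cxcl2 entered the fit only through its wild-type and late arrays.

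Other cell type genes and RNA quality were read beside the chemokines. The summed signal of 9 smooth muscle genes, among them Acta2 and Myh11, ran from 12537 to 17069 over the wild-type arrays and from 6564 to 9650 over the knockout arrays. Its largest part was Acta2 (8217 to 9638 and 5203 to 6660). Tagln (2528 to 4364 and 722 to 2368) and Myl9 (1085 to 2007 and 153 to 214) were lower in the knockout without overlap. So were Actg2 (121.5 to 698 and 5.9 to 56.5) and Myh11 (21.3 to 39 and 3.9 to 12.6). Smtn (238 to 590 and 269.5 to 450) and Des (2.1 to 30.6 and 7.7 to 27.4) overlapped broadly between genotypes, and Cnn1 and Lmod1 at the margin. The summed signal of 5 mesothelial genes, among them Msln and Upk3b, ran from 650 to 862 and from 9689 to 12879. Of 6 adventitial fibroblast genes 5 passed the filter, with overlapping sums of 1781 to 6734 and 2840 to 5077. Within that list Thy1 (6.9 to 26.6 in the wild type, 126 to 211 in the knockout) and Serpinf1 (0.7 to 29.1 and 105 to 154) were higher in the knockout, and Lum (412 to 3085 and 112 to 274) was lower. Of 10 leukocyte genes 6 passed, with sums of 499 to 912 and 775 to 1357. The sums were largely Cd14 (338 to 504.5 in the wild type, 377 to 678 in the knockout) and Csf1r (23.2 to 333 and 44.4 to 747). Lyz2 (21.1 to 51.4 and 15.9 to 31.8) and Itgax (8.3 to 28.4 and 2.4 to 17.4) ran lower in the knockout. Each of the 6 overlapped between genotypes. Ptprc, which marks all leukocytes, did not pass, at 0.5 to 21.0 in the wild type and 1.8 to 15.6 in the knockout. Of 8 endothelial genes 4 passed, and Pecam1 and Cdh5 did not. The 3' to 5' signal ratio of Actb, a measure of RNA integrity, was 1.49 to 2.60 in the wild type and 1.66 to 3.44 in the knockout. The part of these differences in the genotype differences of Ccl7, Cxcl2, Cxcl12, Cxcl10 and Cx3cl1 was not tested, and fewer cells of a type cannot be told apart from less RNA per cell.

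Among the other chemokine ligands 15 of 28 were tested. Between genotypes 4 were higher and 1 lower in the knockout (48% of all genes were called), 1 rose and 2 fell with time (51% of all genes), and 1 differed in its change (4.27%). Cxcl16, a membrane-bound chemokine, had mean signals of 27.2 early and 93.8 late in the wild type, and 172 early and 219 late in the knockout. Like Ccl2 it rose less in the knockout, with a difference of changes of -1.36 ± 0.29 (limma adjusted p = 0.0186), a call not examined under other settings. Unlike Ccl2 it was higher there over the 6 times, by 1.88 ± 0.14 (limma adjusted p = 2.21e-07). Cxcl17 was also higher, by 1.98 ± 0.12 (limma adjusted p = 2.98e-08). Cxcl15 fell with time, by 0.62 ± 0.06 on the log2 scale (limma adjusted p = 3.26e-06), and Ccl27a fell by 0.54 ± 0.11 (limma adjusted p = 0.00112).

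Of 23 chemokine receptors 8 were tested, and 2 were called between genotypes, Ackr3 above and Ccr6, against 48% of all genes. Ccr6, the receptor of Ccl20, was dim, with mean signals of 32.5 early and 34.8 late in the wild type and 13.4 early and 21.9 late in the knockout, a difference of -0.90 ± 0.26 (limma adjusted p = 0.0124).

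Genes of NF-kappaB and its feedback were tested for 16 of 17 members. With time 9 rose and 3 fell, against 20.5% and 30.5% of all genes, with a median change of 0.34 against -0.07 for all genes. Tnfaip3, which restrains NF-kappaB signalling, had a mean signal of 1314 early and 3250 late in the wild type, and 1451 and 2704 in the knockout, and rose by 1.11 ± 0.06 (limma adjusted p = 7.55e-09). Bcl3 rose by 1.87 ± 0.13 (limma adjusted p = 1.05e-07). In 4 of the 16 the change was called lower in the knockout (2.17% of all genes), calls not examined under other settings. Nfkb2 at -0.65 ± 0.15 (limma adjusted p = 0.0333) and Relb at -0.87 ± 0.20 (limma adjusted p = 0.0286), subunits of NF-kappaB, rose less there, as did Ccl2. The others did not share that course. Mean signals of Zfp36 fell from 1827 to 868.5 in the wild type and from 1695 to 524 in the knockout. Those of Nfkbia went from 4912 to 5781.5 and from 4722 to 4284. Between genotypes 3 were higher and 6 lower, against 24.1% and 23.9% of all genes.

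Of 13 inflammatory cytokines 9 were tested, and 4 rose and 4 fell with time, against 20.5% and 30.5% of all genes. Il6 had a mean signal of 57.9 early and 769 late in the wild type, and 165.5 early and 609.6 late in the knockout. Like Ccl2 it rose less in the knockout, with a difference of changes of -1.74 ± 0.22 (limma adjusted p = 0.00102). Lif did so too, at -3.24 ± 0.19 (limma adjusted p = 4.38e-06), and Csf1, the growth factor of macrophages, at -0.57 ± 0.10 (limma adjusted p = 0.00675). These 3 were all of the tested cytokines called for this difference, against 4.27% of all genes. Their calls were not examined under other settings.

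Interferon-response genes, the family to which Cxcl10 belongs, were tested for 17 of 19 members. With time 10 fell and 0 rose, against 30.5% and 20.5% of all genes, with a median of -0.49 against -0.07 for all genes, while Cxcl10 was not called. Ifit3 fell from a mean of 936 to 275 in the wild type and from 762 to 223 in the knockout, and Ifit2 from 749.7 to 194 and from 485 to 145. Between genotypes 7 were higher and 3 lower in the knockout, against 24.1% and 23.9% of all genes. The 7 include Mx1 and Oasl2, whose mean signals lay below the filter signal in both windows of the wild type. Mx1 had means of 11.6 early and 10 late in the wild type, and 21.3 and 28.2 in the knockout. Those of Oasl2 were 8.5 and 11.7, and 24.1 and 18.8. Their part in the count is therefore a description against wild-type values near background. Ifit3 was lower by a difference of -0.30 ± 0.07 (limma adjusted p = 0.00392) and Ifit2 by -0.50 ± 0.08 (limma adjusted p = 0.000181), opposite to Cxcl10. Gbp2 was higher by 2.44 ± 0.12 (limma adjusted p = 3.8e-09) and Igtp by 1.76 ± 0.14 (limma adjusted p = 4.65e-07), the direction of Cxcl10.

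The genes whose log2 values over the 16 arrays, as labelled, were most like each chemokine were found by Pearson's r, as a description of arrays that share genotype and time course. For Ccl2 they were Phlda1 at 0.917, Klf10 at 0.908 and Errfi1 at 0.902. For Ccl7 they were Itprip at 0.935, Rap1b at 0.922 and Map3k14 at 0.921. For Cxcl1 they were Zscan21 at 0.879, Map3k8 at 0.877 and Vrk2 at 0.854. Cxcl12 was most like Olfml2b at 0.986, Rftn2 at 0.985 and Marchf6 at 0.983, and Cx3cl1 like Dock5 at 0.958, Arap2 at 0.946 and Inpp5a at 0.945. Of the dim genes, Cxcl2 and Cxcl10, the closest were Brpf1 at 0.919 and Gphn at 0.835. Among the chemokines themselves Ccl7 and Cxcl2 were closest, at 0.802, and Cx3cl1 and Cxcl12 farthest apart, at -0.649.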

How the data were processed

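The authors produced the deposited intensity values, linear signals per probe set, by MAS5 (per the submitters' processing notes). Neither its version nor a scaling target is stated in the labels. The deposited arrays were not on a common scale (2% trimmed means from 80.6 to 342). They were quantile normalized over all 16 and put on the scale of log2(signal + 4.856). The offset is the 20th and the filter signal of 16 the 40th percentile of all signals. A single gene symbol was given for 34945 probe sets, several for 932 and none for 9160, with 64 controls set aside. Of those with 1 symbol 34741 matched RefSeq genes of GRCm38.p6, and 0 symbols changed.

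Models were fitted in limma 3.58.1 (R 4.3.3) with terms for time (a factor), genotype and genotype by window, 4 residual degrees of freedom, and empirical Bayes moderation with an intensity trend. It was tested on simulated data. Scalings, offsets, filters, probe set choice, variance model, arrays, time block, windows and each array left out were varied.

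The chemokines, gene lists, windows and tests were chosen with earlier results of these data known. Named genes are the 10 chemokines, the genes most alike to each tested one (up to 3), and up to 4 tested genes per list with the smallest p in any of 3 contrasts. Genes of the cell type lists are named too. Mx1, Oasl2, Zfp36 and Nfkbia are named because a count turns on them. Fos is named as a check of the time order of the arrays, and Hey2 as the gene knocked out, whose signal does not check the labels.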

Additional observations from a re-analysis of the deposited data

Results flagged for a closer look

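The change of Ccl2 between the early and late windows differed between the genotypes, by -1.58 ± 0.26 on the log2 scale (knockout minus wild type, limma adjusted p = 0.00446). The difference itself was tested, as the genotype by window term of the fit. The knockout array was above the wild-type array at each of the 3 early times and below it at each of the 3 late times. In 4 of 23 other settings the call was lost, and the difference was negative in all 23, between -2.06 and -1.33. Among the 23, the settings without either array of a time gave the same estimate.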

How the results depend on the processing

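Of the values of single chemokines under other settings, 600 kept direction and call, 67 kept the direction and lost the call, and 15 changed sign. On the deposited scale the counts called of 7 fell to 0 between genotypes, 2 between windows, 0 for the difference of the changes, 0 and 0 between genotypes in the early and late window, 2 for the change in the wild type and 0 for that in the knockout. With all 16 arrays the counts were 3 between windows, 0 for the difference of the changes, 2 in the wild type and 0 in the knockout. Without an intensity trend, and likewise without the time block, 0 were called for the difference of the changes and 2 between genotypes in the late window. These counts of 0 are from limma, and at an unadjusted p under 0.05 they were 1 to 3; the causes were not tested. Leaving out 1 array gave 3 to 6 called between genotypes, 6 in each case between windows, 1 in each case for the difference of the changes, 3 to 5 and 3 to 4 between genotypes in the early and late window, 5 to 6 in the wild type and 4 to 6 in the knockout.

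Except for Cxcl2, the values that changed sign were close to 0 in the main setting or came from the deposited scale. For Cxcl2 the difference of changes was 0.25 ± 0.59 in the main setting. The genotype difference of Ccl2 was 0.37 on the deposited scale, 0.057 without either 30 min array and 0.079 without either 240 min array. Leaving out 1 array gave -0.183 to 0.079. That of Cxcl1 was 0.22 on the deposited scale. The deposited scale moved the median genotype difference of all genes to 0.38, and relative to it the values were -0.01 for Ccl2 and -0.16 for Cxcl1. The late change of Cxcl10 was -0.018 with trimmed mean scaling, and -0.013, -0.031 and -0.022 without the wild-type 0 min, wild-type 240 min and knockout 180 min arrays, with -0.031 to 0.273 when 1 array was left out. The difference of changes of Cxcl2 was -0.011 with the offset multiplied by 3 and -0.279 without either 0 min array (-0.279 to 0.615 when 1 array was left out), and that of Cxcl12 was 0.21 on the deposited scale and 0.29 with trimmed mean scaling.

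Over all genes the difference of the changes was called for 594, and for 2 without the intensity trend, 2 with all 16 arrays, 110 without the time block and 0 on the deposited scale. Between windows 7100 were called, 2885 with all 16 arrays, 11325 of separate probe sets and 766 on the deposited scale, where 79.6% rather than 40.3% rose. Fitting probe sets separately called 10483 between genotypes. Dim signals limit Cxcl2 and Cxcl10, which the stricter filter left out. No paired analysis by replicate number was possible because the labels give none; time-matched arrays formed the blocks.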
